A study of Mus musculus with 30 samples.

Results

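The proteasome subunits were taken as all genes of the deposited table whose symbol begins with Psma, Psmb, Psmc, Psmd, Psme or Psmg followed by a number, and 49 of 21412 genes met this rule. The table holds RNA sequencing of hippocampus from 30 male BALB/c mice, with 5 mice in each of 6 groups. Ctr mice ate an unspiked diet for 11 weeks, while methylmercury (MeHg) was added at 0.28 mg per kg of diet for LD and at 5 mg per kg for HD. Another 3 groups, Se_Ctr, Se_LD and Se_HD, carry these names with a selenium prefix, and their selenium and mercury doses are not given in the sources used here. Mice of the Ctr, LD and HD groups were 2 to 3 weeks old on arrival and were acclimatized for 5 days. The whole hippocampus was sampled, so that fewer cells of a type and less RNA per cell cannot be told apart in these values.

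The 26S proteasome degrades proteins that carry ubiquitin. Its 20S core is a barrel of alpha rings (Psma genes) and beta rings (Psmb genes), and its 19S cap recognises, unfolds and feeds in the substrate with ATPase subunits (Psmc genes) and non-ATPase subunits (Psmd genes). Interferon gamma induces the immune subunits Psmb8, Psmb9 and Psmb10, which replace the catalytic beta subunits Psmb5, Psmb6 and Psmb7 in new particles and favour peptides for MHC class I. It also induces the PA28 activator of Psme1 and Psme2. Microglia, the resident immune cells of the brain, are a known source of immune subunits.

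The 49 genes comprised 8 alpha subunits, 7 constitutive beta subunits, 2 immune beta subunits, the thymic subunit Psmb11, 6 ATPases and 11 non-ATPase subunits of the 19S cap. The others were 3 chaperones of the 19S base (Psmd5, Psmd9, Psmd10), 4 activators (Psme1 to Psme4), 4 chaperones of 20S assembly (Psmg1 to Psmg4), 2 pseudogenes and Psmc3ip. Psmc3ip matches the rule by its spelling only and belongs to meiotic recombination. The immune subunit Psmb9 was not analysed here. Averaged over all mice, 45 genes reached 10 normalized counts, that is, reads divided by the size factor of the library. The other 4, Psma8, Psmb11, Psme2b-ps and Psmb7-ps2, were lower.

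Promoter sequence is shown for Psmb3, the only subunit that passed the test in the comparison of HD with Ctr, for the immune subunit Psmb8, and for Psmb5, the constitutive subunit that Psmb8 replaces. The sequences are from RefSeq (GRCm38.p6), 5′ to 3′ on the strand of the gene, and end at the base before the annotated start. Capitals mark a match, on either strand, to the core of the interferon-stimulated response element in Psmb3, or to TGACNNNGC, the core of the antioxidant response element, in Psmb5. The expression values rest on the older build NCBIM37, in which the genes lie at chr11:97564713-97574814 (Psmb3), chr17:34334666-34338399 (Psmb8) and chr14:55232644-55236851 (Psmb5). In GRCm38.p6 the Psmb3 stretch lies at chr11:97703184-97703433 on the plus strand, that of Psmb8 at chr17:34197945-34198194 on the plus strand and that of Psmb5 at chr14:54617996-54618095 on the minus strand.
Psmb3: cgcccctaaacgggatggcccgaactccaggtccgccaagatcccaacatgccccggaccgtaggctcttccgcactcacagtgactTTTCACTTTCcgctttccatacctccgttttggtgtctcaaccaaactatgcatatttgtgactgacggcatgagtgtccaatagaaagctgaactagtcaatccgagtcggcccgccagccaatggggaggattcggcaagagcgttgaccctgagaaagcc
Psmb8: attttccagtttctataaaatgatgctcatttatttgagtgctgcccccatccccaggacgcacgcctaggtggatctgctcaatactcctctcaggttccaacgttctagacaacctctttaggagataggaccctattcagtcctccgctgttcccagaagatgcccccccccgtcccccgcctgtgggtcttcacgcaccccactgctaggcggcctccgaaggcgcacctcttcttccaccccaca
Psmb5: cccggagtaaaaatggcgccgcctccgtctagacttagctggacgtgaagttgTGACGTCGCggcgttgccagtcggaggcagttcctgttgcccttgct

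The match in Psmb3 is on the minus strand and begins 163 bases before the start, and the match in Psmb5 is on the plus strand, 47 bases before the start. Over 300 bases, from 250 before to 50 after the start, promoters were listed for 39 of the 49 genes, in 42 entries. The interferon-stimulated core was held by 5 of these entries (Psmb3, Psmd4, Psmd9, Psme1 and Psmg4), which is 11.9% against 3.44% of all 32851 promoters. TGACNNNGC was held by 6 (Psmb5, Psmb6, Psmc6, Psmd9, Psmd12 and Psme4), which is 14.3% against 12.4%. Psmb8 held neither motif. Psmd9 alone held both, and these matches began 159 and 31 bases before its start. These are matches of letters only, with no test.

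Depth ranged from 5768208 to 11510521 reads on genes, with a group median of 7119788 in Ctr and 10159514 in HD. Markers of the hippocampus (Prox1, Zbtb20, Neurod2, Neurod6, C1ql2, Wfs1, Fibcd1 and Calb1) were all detected in every library, with a summed level of 8586 to 15359 normalized counts. HD library 21 stood apart from the rest, with a median correlation of 0.955 with the other libraries over 14296 genes. HD library 15 was next, at 0.971, and had the lowest number of reads in its group, 7133831 against at least 10131999 in the other 4. Ctr libraries 13 and 1 were close to it, both at 0.972. In recovered reads, Ctr library 13 differed from the other Ctr libraries by a chi-square of 56.9 to 62.0 per degree of freedom, more than any other pair within a group.

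Per kilobase of exon, the levels of the subunits spanned from 0.500 to 849 normalized counts per kb. The highest were Psmc5, an ATPase of the cap (849), Psmb7, a catalytic beta subunit (809), and Psmc1 (737). The constitutive catalytic subunits Psmb5 and Psmb6 were at 330 and 277 per kb. Of the immune subunits, Psmb10 was at 126 per kb and ranked 30th of 49, and Psmb8 was at 3.89 per kb and ranked 45th. Psme3, the nuclear activator, was at 221 per kb, above Psme1 (86.1), Psme4 (69.3) and Psme2 (43.0). The germ cell subunit Psma8 (1.56 per kb) and the thymic subunit Psmb11 (2.02 per kb) were near the lower end, and Psma8 was covered by 0 to 12 reads per library.

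**Figure D1:**
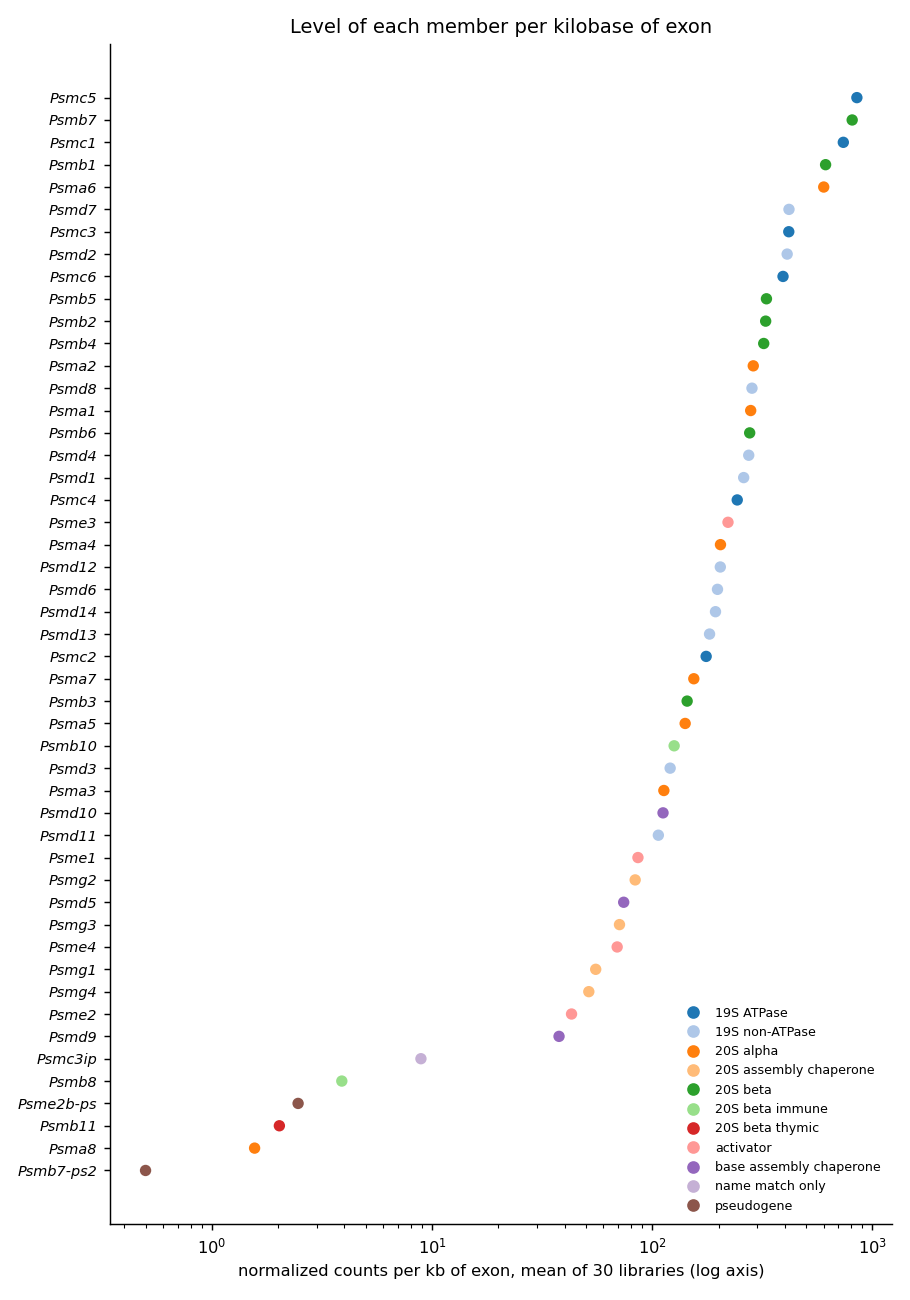
Level of each of the 49 genes as normalized counts per kb of exon, the mean of all 30 libraries, on a log axis, coloured by class. The constitutive 20S and 19S subunits other than Psma8 lie above 100 per kb, and Psmb8 at 3.89 per kb.

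The median coefficient of variation within a group was 4.59% for Psmc1, 4.87% for Psmc3 and 5.04% for Psmd13, and it was 15.6% for Psmb4, the largest among the constitutive 20S and 19S subunits when Psma8 is set aside. Among the immune and activator genes it was 14.0% for Psmb10, 14.8% for Psme2, 15.7% for Psme1 and 34.6% for Psmb8. Psmb8 was covered by 2 to 44 reads per library, so that counting error bears on each of its values. Over 30 libraries, pairs of 20S subunits had a median Pearson r of 0.388 (91 pairs), pairs of 19S subunits 0.282 (136 pairs) and pairs of one 20S and one 19S subunit 0.354 (238 pairs). These libraries share their size factors, and the correlations are given as a description.

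The first comparison asked whether the high dose changed the subunits. HD mice had higher Psmb3, a non-catalytic beta subunit, than Ctr mice, and no other subunit passed both tests. With sets of 6 consecutive library numbers as a covariate, Psmb8 passed both tests and Psmb3 did not. A gene was called when limma gave an unadjusted p under 0.05 both in the F test of the 3 groups and in the contrast. Of the 49 genes 48 could be tested, since Psmb7-ps2 did not pass the filter on low values. Of these, 1 rose and 0 fell, against 5.09% of all genes in either direction, 3.36% up and 1.73% down. With the contrast alone 6 were higher and 0 lower, against 8.34% of all genes in either direction and 5.08% up, and none had an adjusted p under 0.05 (0.13% of all genes). The fold estimates were above 0 for 38 of the 48, against 51.2% of all genes tested. Their median log2 fold change was 0.13, against a median of 0.0067 over all genes tested. Without Ctr library 25 the median was 0.10, with 36 above 0. In Se_Ctr against the same Ctr mice, 36 of 49 were above 0.

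Psmb3 was at 334, 322, 247, 324 and 284 normalized counts in the Ctr mice and at 339, 383, 453, 445 and 345 in the HD mice. All 5 HD mice were above all 5 Ctr mice, although the highest Ctr mouse and the lowest HD mouse differed by less than 5 counts. The log2 fold change was 0.38 ± 0.14 (SE, n = 5 and 5), with a limma p of 0.0139, an F test p of 0.0421 and an adjusted p of 0.411. The exact two-sided permutation test gave 0.00794, the smallest p that 5 against 5 can give, as it must when groups do not overlap. LD mice spread from 253 to 435 and overlapped both groups. Leaving out any one mouse kept the log2 fold change between 0.31 and 0.43. The call was nevertheless lost without Ctr library 13 or 25, LD library 2, or HD library 9, 15 or 21. It was also lost with the library sets as a covariate and with all 30 libraries in one fit, which called Psmb8, Psmd11 and Psme2.

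Psmc3, an ATPase of the 19S base, was the other subunit whose HD and Ctr mice did not overlap, a pattern seen in 0.978% of all genes with HD higher and 0.734% with HD lower. No subunit was lower without overlap. Ctr mice were at 1044, 1060.04, 1074, 1006 and 969 normalized counts and HD mice at 1083, 1079.8, 1514, 1170.4 and 1166. The mouse of library 15 was far above the other HD mice. The log2 fold change was 0.21 with a limma p of 0.0923. The exact permutation p of 0.00794 followed from the lack of overlap by which Psmc3 was named, and adds nothing to it.

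The 8 alpha subunits and the 7 constitutive beta subunits all had a fold estimate above 0, and so did the 6 ATPases. For the 8 alpha subunits, the gate of the barrel, the median was 0.15, and for the 7 beta subunits 0.14. Psma8, covered by few reads, was at 0.44, and at 0.09 to 0.64 when one mouse was left out. Among those with a mean of 10 or more, the highest estimates besides Psmb3 were Psmb2 at 0.28 (adjusted p = 0.671) and Psma1 at 0.23 (adjusted p = 0.534). Psma1 was at 497 to 596 in Ctr mice, with a median of 558, and at 576 to 842 in HD mice, with a median of 601, and its estimate was 0.14 to 0.27 when one mouse was left out, lowest without HD library 21. Among the ATPases Psmc2 had the highest estimate, 0.25 (adjusted p = 0.565), and the lowest was 0.09, for Psmc5 and Psmc6. Of the 11 non-ATPase subunits 9 were above 0, led by the scaffold subunits Psmd1 (0.24, adjusted p = 0.553) and Psmd2 (0.24, adjusted p = 0.662). Among genes with a mean of 10 or more, the 3 lowest estimates were Psmg4 at −0.39, Psmc3ip at −0.32 and Psmg2 at −0.10, of which none passed the test. When one mouse was left out, Psmg4 was at −0.57 to −0.20, Psmc3ip at −0.51 to −0.14 and Psmg2 at −0.14 to −0.07.

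**Figure D2:**
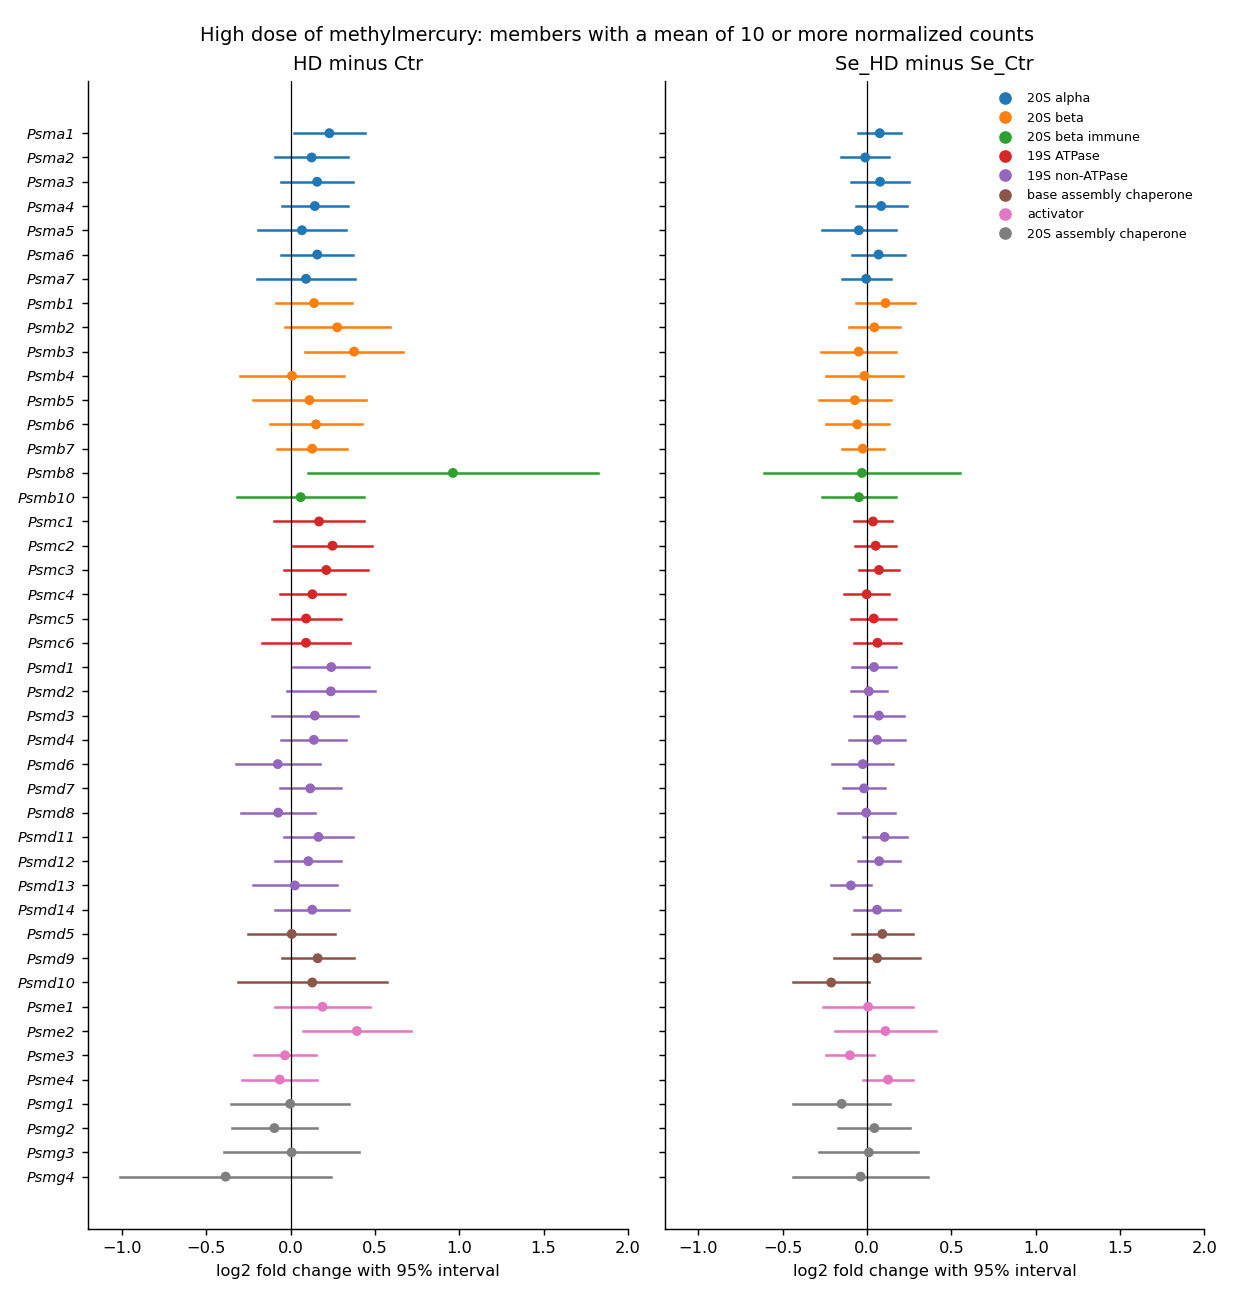
Log2 fold change (points) with 95% intervals (lines) of the subunits that averaged 10 or more normalized counts, Psmc3ip left out, for HD minus Ctr and for Se_HD minus Se_Ctr. Most points of the first panel lie right of 0, and their intervals include 0 except for Psmb3, Psmb8, Psme2, Psma1, Psmc2 and Psmd1.

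The subunits were not equally high in all HD mice. Over the 42 subunits that averaged 10 or more, without the immune subunits and Psmc3ip, the mean deviation from each gene's own mean was highest in HD library 21 (0.22 log2) and LD library 26 (0.22 log2). It was between −0.01 and 0.09 in the other 4 HD mice and between −0.09 and 0.01 in Ctr mice, so that the groups overlapped. Library 21 held the highest value of 15 of the 42 genes, library 26 of 11 and HD library 15 of 10. Without library 21 the median over the members was 0.08 and 33 of 48 were above 0. Without libraries 21 and 15 it was 0.05 with 32 of 48, and 0 members were called.

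**Figure D3:**
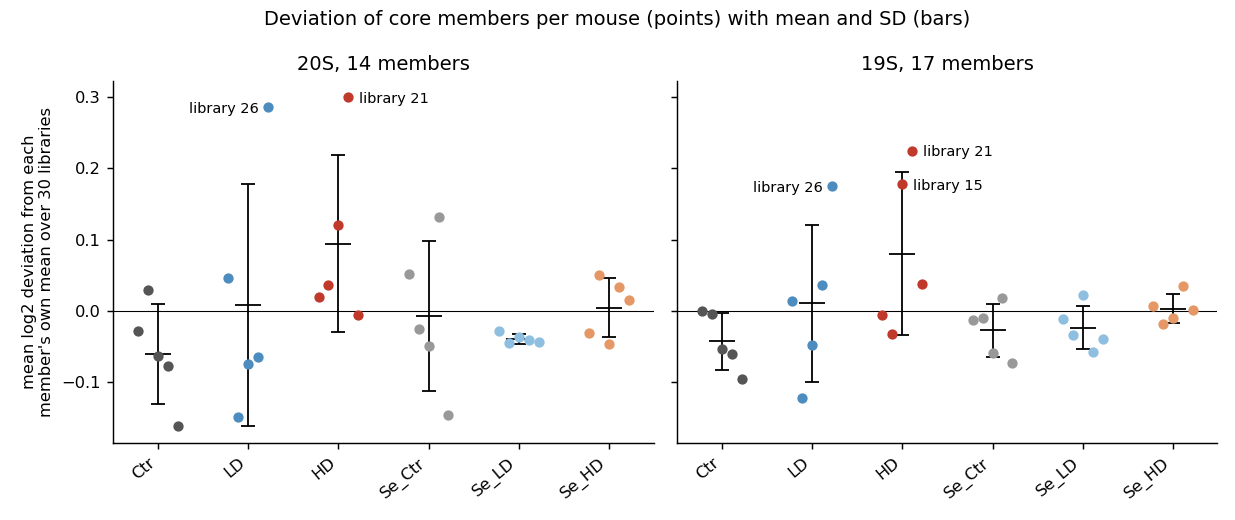
Mean log2 deviation of 14 subunits of the 20S core and 17 of the 19S cap from their own mean over 30 libraries, one point per mouse with the group mean and SD. HD library 21 and LD library 26 lie highest in the 20S panel (0.30 and 0.29).

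Psmb8, the immune counterpart of Psmb5, was at 10.9, 8.95, 3.40, 11.3 and 9.01 normalized counts in Ctr mice and at 22.5, 20.8, 6.73, 35.9 and 11.3 in HD mice. The HD mice of libraries 3, 9 and 21 were well above the controls, that of library 27 was level with the highest control, and that of library 15 lay inside their range. The HD mean was 19.5 ± 11.3 (SD, n = 5), against 8.71 ± 3.16 in Ctr, 9.04 ± 2.98 in LD, 9.73 ± 1.31 in Se_Ctr, 7.27 ± 2.99 in Se_LD and 9.62 ± 2.25 in Se_HD. The other 5 groups overlapped each other. The log2 fold change of HD against Ctr was 0.96 with a 95% interval of 0.10 to 1.82, a limma p of 0.0303, an F test p of 0.0535 and an adjusted p of 0.525. The exact permutation test gave 0.0873. Psmb8 was therefore not called, and it was called by edgeR and DESeq2 on the recovered reads, with a pseudocount of 10, with the library sets as a covariate and with all 30 libraries in one fit.

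The constitutive catalytic subunits were not called. Psmb5, which carries the chymotrypsin-like site, was at 236 to 344 normalized counts in Ctr and 280.04 to 397 in HD mice, with a log2 fold change of 0.11 (adjusted p = 0.910). Psmb6 was at 0.15 (adjusted p = 0.829) and Psmb7 at 0.13 (adjusted p = 0.797), and both groups overlapped for each of the 3 genes. When one mouse was left out, the estimate of Psmb5 was 0.02 to 0.18, lowest without HD library 15, and that of Psmb6 was 0.05 to 0.23, lowest without Ctr library 25. That of Psmb7 was 0.08 to 0.16.

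Psmb10, the immune counterpart of Psmb7, lay near 0. Ctr mice were at 122 to 194 normalized counts with a median of 176, and HD mice at 139.6 to 212 with a median of 167. The log2 fold change was 0.06, with a 95% interval of −0.32 to 0.43 (adjusted p = 0.960). It was below 0 when HD library 21 (−0.02) or Ctr library 25 (−0.05) was left out.

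Psme2, one subunit of the PA28 activator, was at 68.8, 71.6, 86.8, 76.5 and 58.6 normalized counts in Ctr mice and at 91.6, 109, 98.2, 111 and 69.8 in HD mice. All HD mice but that of library 27 were above all controls. The log2 fold change was 0.39 ± 0.15 (SE), with a limma p of 0.0182, an F test p of 0.0512 and an exact permutation p of 0.0397. Psme2 was therefore not called, and it was called by edgeR and DESeq2, with a pseudocount of 0.1, with a filter at a mean of 10 and with all 30 libraries in one fit. Its partner Psme1 was at 170.1 to 197 in Ctr and at 175 to 269 in HD mice, with a log2 fold change of 0.19 (adjusted p = 0.785), which was 0.10 without HD library 21 and at most 0.25 when another mouse was left out. The activators Psme3 and Psme4 were at −0.03 (adjusted p = 0.954) and −0.06 (adjusted p = 0.920).

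**Figure D4:**
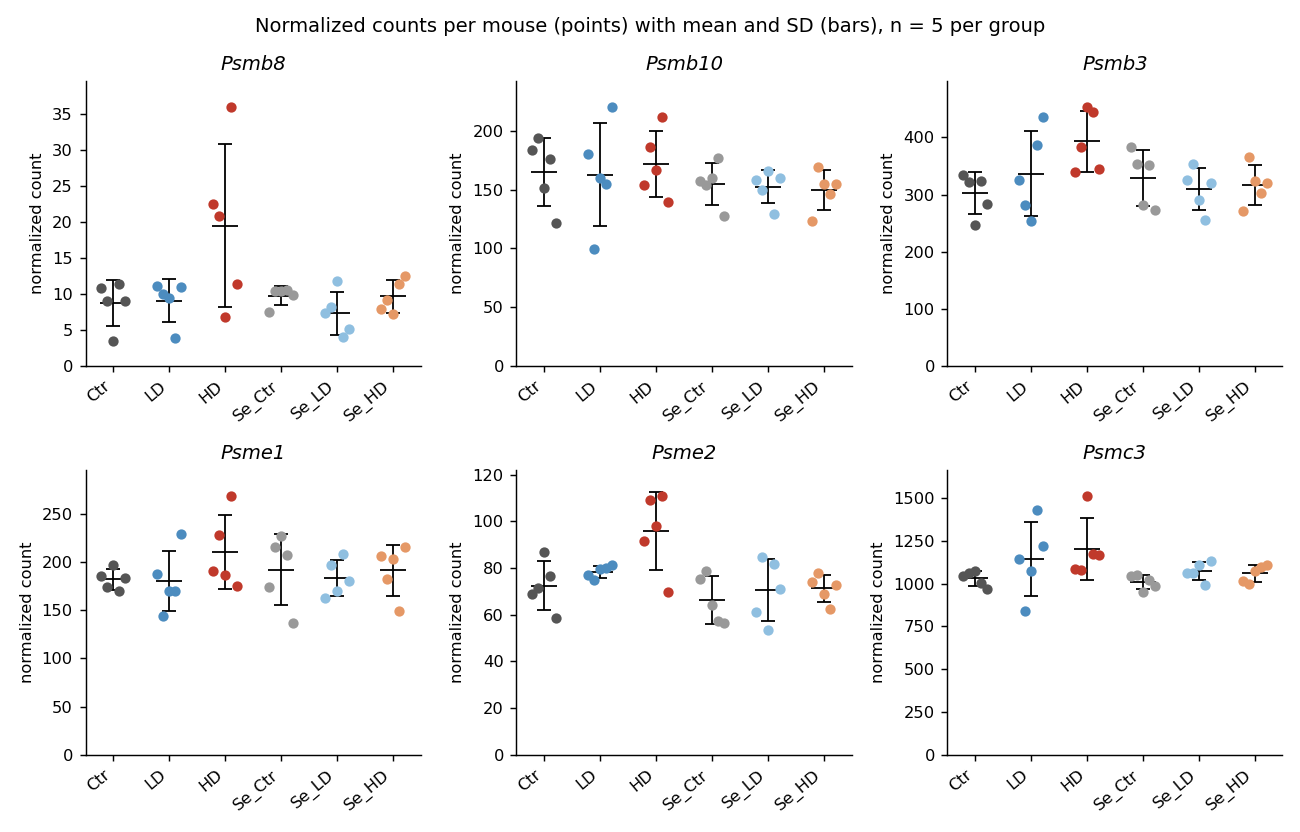
Normalized counts of 6 subunits, one point per mouse, with mean and SD (n = 5 per group). In HD the points of Psmb8 spread from 6.73 to 35.9 and those of Psme2 from 69.8 to 111, and Psmb10 overlaps in all groups.

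The share of an immune subunit within its pair was read from the ratio to its constitutive counterpart per exonic length. Psmb8 made up 1.01% ± 0.35 (SD, n = 5) of Psmb8 plus Psmb5 in Ctr mice and 2.16% ± 1.31 in HD mice. In the HD mice it was 2.55%, 2.31%, 0.57%, 4.03% and 1.35%, and in 4 of the 5 it was above all controls. The difference in log2 ratio was 0.94, with an exact two-sided permutation p of 0.143 and an adjusted p of 0.714 over 10 tests. When one mouse was left out, the difference was lowest without HD library 21, at 0.64, and highest without HD library 15, at 1.36. Library 15 is the HD mouse that did not lie above all controls, so no p is given without it. Psmb10 made up 14.1% ± 2.02 of Psmb10 plus Psmb7 in Ctr and 13.5% ± 1.94 in HD mice, a log2 difference of −0.07 (exact permutation p = 0.690, adjusted p = 0.944). Of the other 8 tests none had an adjusted p under 0.05. The smallest p among them was 0.0952, for the Psmb8 ratio in Se_LD against Se_Ctr, at a log2 difference of −0.39.

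**Figure D5:**
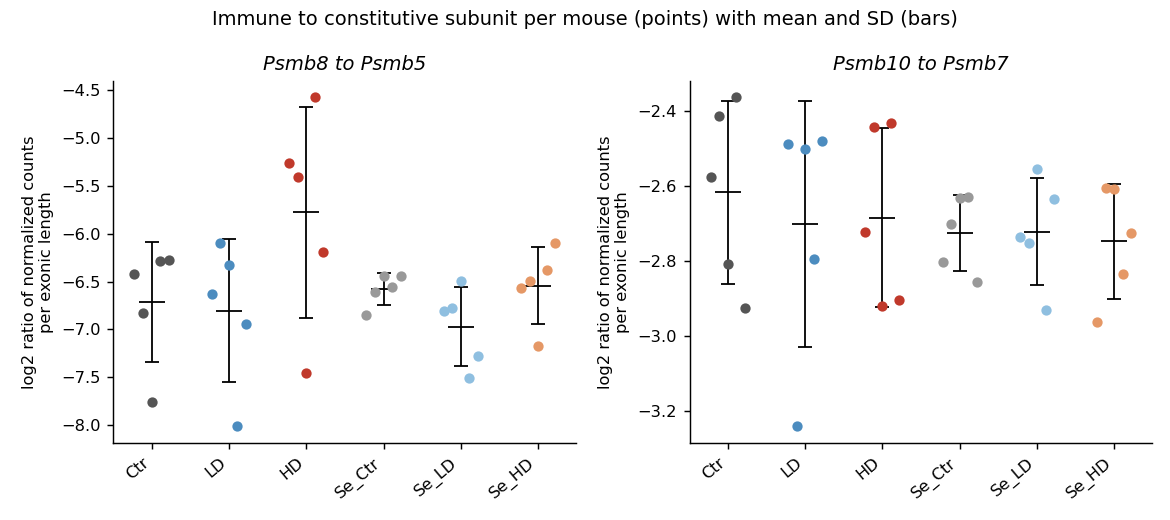
Log2 ratio of the immune to the constitutive subunit, both per exonic length, one point per mouse with mean and SD (n = 5 per group). The ratio of Psmb8 to Psmb5 spreads from −7.45 to −4.57 in HD mice, and that of Psmb10 to Psmb7 overlaps in all groups.

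Microglia markers were also higher in HD than in Ctr mice, and astrocyte markers were so with an overlap between the groups. The summed level of 10 microglia markers, all measured, was 2606 to 2887 in Ctr mice and 3304 to 7585 in HD mice, and all 5 HD mice were above all controls. Among HD mice it was 7585 in library 21, 6571 in library 9 and 4464 in library 3, the 3 mice with the highest Psmb8 (35.9, 20.8 and 22.5). It was 3845 in library 15 and 3304 in library 27. Psmb8 went the other way in these, at 6.73 in library 15, inside the control range, and 11.3 in library 27. In Se_HD mice it was 2737 to 3199.5 against 2553 to 3221 in Se_Ctr. Astrocyte markers (6 of 6 measured) were 43972 to 54506 in Ctr and 53301 to 87617 in HD mice, and Gfap alone reached 32820 in library 21. Of 8 T and NK cell markers, Cd3e, Cd3d, Cd3g, Cd8a, Nkg7 and Gzmb were not analysed here, and Cd4 and Lck summed to 12.4 to 30.7 in Ctr and 18.3 to 32.3 in HD mice. Oligodendrocyte markers (5 of 5) were 27945 to 35617 in Ctr and 22547 to 36613 in HD mice, and neuron markers (5 of 6) 44845 to 54354 and 34725 to 56705. Choroid plexus markers (5 of 5) varied widely, from 763 to 30769 with a median of 10701 in Ctr mice and from 6896 to 28929.5 with a median of 26637 in HD mice. Endothelial markers (6 of 6) were 1817 to 2155 and 1656 to 2168, and erythrocyte markers (5 of 5) 233 to 636 and 151 to 637. The part of these cell types in the Psmb8 and Psme2 values was not tested.

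Over all 30 libraries and the genes with a mean of at least 10, the 10 genes whose pattern was most like that of Psmb8 included Ctsb (Pearson r = 0.781), C1qa (0.758), Pros1 (0.756), Ctsd (0.752), Itgb2 (0.749), Mt1 (0.745), Abhd4 (0.744), Trem2 (0.740) and S100a1 (0.738). Ctsb and Ctsd encode lysosomal enzymes, and C1qa, Itgb2 and Trem2 are known from microglia. C1qa is also in the list of microglia markers. Without library 21 the r of these named genes was between 0.615 and 0.693. Among the subunits Psmd7, a cap subunit of the lid, was highest, at 0.689, and Psmb10 was at 0.362. Without library 21 Psmd7 was at 0.535, level with Psmg3, and Psmb10 at 0.225.

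Of 16 genes of interferon signalling and peptide loading, 3 rose in HD and 0 fell, against 3.36% of all genes up and 1.73% down, and the median log2 fold change was 0.30. Irf8, a transcription factor of microglia, rose by a log2 fold change of 1.13 (adjusted p = 0.0860). B2m, the light chain of MHC class I, rose by 0.71 (adjusted p = 0.224) and Tapbp, which loads peptides, by 0.36 (adjusted p = 0.411). H2-K1, a heavy chain of MHC class I, was at 40.1 to 120 normalized counts in HD mice and at 28.9 to 64.0 in Ctr mice, and did not pass the test. Without library 21, Irf8 and B2m were called and the median was 0.17. Of 27 partners of the proteasome, 1 rose and 0 fell, with a median of 0.05, and this count is near the 3.36% of all genes. This was Nfe2l2, a transcription factor of the oxidative stress response, at 0.51 (adjusted p = 0.271), which was also called without library 21. The maturation factor Pomp (0.24, adjusted p = 0.534) and the ubiquitin receptor Adrm1 (0.36, adjusted p = 0.568) did not pass the F test.

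The second comparison asked the same of the low dose, and shares the Ctr mice with the first. In LD against Ctr limma called 0 of 48 subunits, against 1.46% of all genes in either direction, 0.819% up and 0.639% down. The contrast alone had an unadjusted p under 0.05 for 1, against 3.01% in either direction and 1.67% up. This gene was Psmd9, a chaperone of the 19S base, which was at 164, 176, 162, 146 and 172 in Ctr mice and at 187, 193, 179, 196 and 207 in LD mice. The groups did not overlap, as in 0.21% of all genes with LD higher and 0.19% with LD lower. Its log2 fold change was 0.23 ± 0.10 (SE), with a limma p of 0.0370, an F test p of 0.0967 and an adjusted p of 0.999. The exact permutation p of 0.00794 followed from the lack of overlap. In HD mice it was at 163 to 196. By edgeR and DESeq2 on the recovered reads 0 subunits were called as well. Psmb8 differed by 0.06 and Psmb10 by −0.05 on the log2 scale. Among genes with a mean of 10 or more, other estimates at the ends were Psmg4, a 20S assembly chaperone, at 0.26 and Psmb2 at 0.21, and at the lower end Psmc3ip at −0.27, Psmd5 at −0.11 and Psme4 at −0.10, none of which was called. When one mouse was left out, Psmg4 was at 0.09 to 0.45, Psmb2 at 0.10 to 0.29 and Psmc3ip at −0.46 to −0.11. Psmd5 was then at −0.15 to −0.04 and Psme4 at −0.16 to −0.05. The median over the 48 was 0.06, with 36 above 0, against 51.1% of all genes. Without LD library 26 the median was 0.01, with 25 above 0, and the contrast alone gave 0 subunits.

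In the groups labelled with selenium, the high dose gave no called subunit. Of 48 tested 0 were called by limma in Se_HD against Se_Ctr, against 2.06% of all genes in either direction, 1.28% up and 0.777% down. The contrast alone gave 0 as well, against 4.19% in either direction and 2.43% up. No subunit had groups without overlap, as 0.478% of all genes had with Se_HD higher and 0.32% with Se_HD lower. By edgeR and DESeq2 the count was 0. The estimates were above 0 for 25 and below for 23, with a median of 0.01. Psmb3 was at 271 to 365 in Se_HD and 273 to 384 in Se_Ctr mice. Psmb8 was at 7.26 to 12.5 and 7.45 to 10.5, at a log2 fold change of −0.03. The smallest p was that of Psmd10, a chaperone of the base (−0.21, adjusted p = 1), with 119 to 155 in Se_HD and 128 to 186 in Se_Ctr mice. Psmd13, a lid subunit, was at −0.10, with a limma p of 0.105 and an exact permutation p of 0.0159. Psmd12 (0.07) and Psme4 (0.12) were higher, each with an exact permutation p of 0.0397. These permutation p-values are not adjusted. Of the partners, Nfe2l2 rose by 0.35 (adjusted p = 1), and of the interferon and peptide loading genes Tapbp rose by 0.24 (adjusted p = 1).

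In Se_LD against Se_Ctr 0 of 48 were called by limma and by edgeR, and 1 by DESeq2, against 1.46% of all genes in either direction, 0.879% up and 0.584% down, in the limma fit. The contrast alone, which 3.31% of all genes passed in either direction and 1.8% up, gave Psmd2, the scaffold of the base, at a log2 fold change of 0.11 (adjusted p = 1), with 1534 to 1650.4 in Se_Ctr and 1669 to 1752 in Se_LD mice. These groups did not overlap, which 0.285% of all genes showed with Se_LD higher and 0.219% with Se_LD lower. The contrast alone gave 0 subunits with the library sets as a covariate or with recomputed size factors. Among subunits with a mean of 10 or more Psmb8 had the lowest estimate, −0.44 (adjusted p = 1), and the lower Psmb11 was at −0.61. Without one mouse the estimate of Psmb8 was −0.62 to −0.28. In Se_Ctr against Ctr limma called 0 of 49, against 1.3% of all genes in either direction, 0.561% up and 0.739% down. The contrast alone also gave 0, against 4% in either direction and 1.78% up, and so did edgeR and DESeq2. No subunit had groups without overlap (0.309% of all genes with Se_Ctr higher, 0.421% lower). The smallest limma p was 0.0677, for Psme3 at 0.14. The estimates were above 0 for 36 of the 49, against 51.1% of all genes, with a median of 0.04. This comparison shares its Ctr mice with the first.

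Whether the effect of the high dose differed between the diets was tested by the interaction over all 30 libraries. Of 49 subunits 1 was called, and it was negative, against 4.77% of all genes in either direction, 1.82% positive and 2.96% negative. Psmb3 had a difference of −0.43 between its effect with selenium and without, with a 95% interval of −0.80 to −0.06, a limma p of 0.0250 and an adjusted p of 0.997. The call was lost without Ctr library 13, HD library 15, Se_Ctr library 4 or Se_HD library 6. Psmb8 had a difference of −0.99 (−2.02 to 0.04, adjusted p = 0.997) and was not called. It was called with a pseudocount of 10, by edgeR and DESeq2, without Ctr library 1 or 19, HD library 15 or 27, Se_Ctr library 4 or Se_HD library 30, and without HD libraries 21 and 15 together, where Psmb3 was not. Of the 49 values 40 were below 0 and 9 above, against 48% of all genes above 0. Their median was −0.10, and without HD library 21 it was −0.06. Irf8 (−1.18, adjusted p = 0.414) and B2m (−0.55, adjusted p = 0.997) were also called in this contrast, and the interaction shares its HD and Ctr mice with the first comparison.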

How the data were processed

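TruSeq Stranded mRNA libraries, one per mouse, were read single-end by the authors. The authors trimmed reads with Trim Galore 0.4.2, mapped them with Hisat2 to the NCBIM37 build and counted them per gene with FeatureCounts. Whether counting used the strand is not given in the sources used here. The deposited values are a signal, namely counts that the authors divided by one DESeq2 size factor per library, after removal of features with a row sum under 10. All values were whole multiples of one step per library, within 0.01 of a read, and reads were recovered by it. No molecular identifiers are named in these sources, so reads are not independent molecules. Symbols, positions and exon lengths came from the NCBIM37 annotation, which named 21326 of 21412 identifiers.

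Values were transformed as log2 (normalized count + 1) and fitted by limma 3.58.1 (R 4.3.3) with trend, over genes with a sum of at least 10 in the fit. The plain-diet fit had 15 libraries and 20031 genes, the selenium fit 15 and 19679, and the joint fit 30 and 21383, used for Se_Ctr against Ctr and the interaction. Calls needed both F test and contrast below 0.05, unadjusted, as the study's methods do, and the interaction its contrast only. Adjustment was by Benjamini-Hochberg across each fit's genes. Fold changes are on the log2 of value plus 1 scale and understate changes of low genes. Ratios were tested by exact permutation, adjusted over 10 tests. The 15 planned tests included Psmb9, which was not analysed here. Named genes are the catalytic and immune subunits, Psmb11, Psma8, Psme1 and Psme2, every called member, and per contrast the 5 lowest p and the 3 highest and 3 lowest estimates at a mean of at least 10. Other subunits and list genes named were chosen after their values were seen. Single values of some list genes are not reported here. The members and lists were chosen with earlier results of these data known.

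The labels name one mouse per library without litter or batch, so p-values measure the spread between these mice. Alternatives were pseudocounts of 0.1 and 10, other filters, quantile normalization, recomputed size factors, library sets as a covariate, edgeR 4.0.16 and DESeq2 1.42.0 on recovered reads, all libraries in one fit, and leaving out mice. On simulated data for HD against Ctr with 19813 genes, limma called 92% of genes changed 2-fold and 42% of those changed 1.25-fold, and 2.72% of unchanged genes. The changed genes averaged 10 or more normalized counts, and each gene took the spread of genes of like level. No simulated library was made to stand apart, so these shares do not describe data that hold such a library. Exons of Psmb5 overlap Mir686 (11.8% of their length) and those of Psmd14 a second gene model (12.0%) on the same strand, and those of Psmb8 overlap Gm20496 (6.83%) on the other strand, so reads there may be shared.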

Additional observations from a re-analysis of the deposited data

Results flagged for a closer look

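One result was called by a test of the difference between the diets. It was the interaction of the high dose and selenium for Psmb3, at −0.43 on the log2 scale. It was 1 of 49 subunits, against 4.77% of all genes, and it did not pass adjustment over all genes (adjusted p = 0.997). The call was lost without Ctr library 13, HD library 15, Se_Ctr library 4 or Se_HD library 6.

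In 12 of 204 groups of 5 mice one mouse stood apart from the other 4 by Dixon's test, and about 10.2 are expected by chance. The gap to the nearest mouse as a share of the group's range is given for each. In HD library 15 it was 0.719 for Psmb11, 0.851 for Psmb5, 0.792 for Psmc3 and 0.874 for Psmd10, all high, and 0.821 for the reads counted on genes, which were low. In that library Psmb5 was at 397 normalized counts against 280.04 to 297 in the other HD mice, and Psmd10 at 321 against 145 to 167.5. In LD mice the share was 0.717 for Psma1 (library 26, high), 0.766 for Psmb8 (library 20, low) and 0.715 for Psme3 (library 20, low). It was 0.777 for Psmb8 in Se_Ctr library 4 (low), 0.755 for Psmc4 in Ctr library 25 (low), 0.721 for Psmd5 in Se_Ctr library 28 (high) and 0.739 for Psmg1 in Se_LD library 11 (low).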

How the results depend on the processing

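The number of subunits called in HD against Ctr was 1 and became 2 with a pseudocount of 0.1, a pseudocount of 10, a mean of at least 10 or quantile normalization, 3 with edgeR or all 30 libraries in one fit, 4 with DESeq2, 6 with the contrast alone and 0 without the 2 libraries least like the rest, a setting chosen after seeing the data. Leaving out each mouse gave 0 to 3. The count of 0 came without Ctr library 25, LD library 2 or HD library 21. The interaction count was 2 with a pseudocount of 10, edgeR or DESeq2 and 0 to 3 without one mouse. In Se_LD against Se_Ctr it was 1 with quantile normalization, DESeq2 or the contrast alone, and in LD against Ctr 1 with the contrast alone. Without one mouse it was 0 to 1 in LD against Ctr, Se_HD against Se_Ctr, Se_LD against Se_Ctr and Se_Ctr against Ctr. With library sets as a covariate Psmb8, not Psmb3, was called in HD against Ctr, and with all 30 libraries in one fit Psmb3 was not called. The cause was not tested.

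Psmb8 in Se_Ctr against Ctr turned negative without Ctr library 13, and spanned −0.044 to 0.33 without one mouse. Psmb10 in HD against Ctr turned negative without Ctr library 25 or HD library 21, spanned −0.045 to 0.13 without one mouse, and was −0.037 without the 2 libraries least like the rest. Without one mouse, the log2 ratio of Psmb8 to Psmb5 differed by 0.64 to 1.36 in HD against Ctr, −0.35 to 0.21 in LD against Ctr, −0.075 to 0.20 in Se_HD against Se_Ctr, −0.51 to −0.26 in Se_LD against Se_Ctr and −0.13 to 0.24 in Se_Ctr against Ctr, where it was −0.029 with a pseudocount of 10. In Se_LD against Se_Ctr −0.51 came without Se_LD library 17, the mouse of that group with the highest ratio, so no p is given without it. Without one mouse, the Psmb10 to Psmb7 ratio differed by −0.14 to −0.0049 in HD against Ctr and −0.16 to 0.050 in LD against Ctr. It differed by −0.058 to 0.031 in Se_HD against Se_Ctr and −0.039 to 0.055 in Se_LD against Se_Ctr. In Se_Ctr against Ctr it differed by −0.18 to −0.044. Psmb8 rests on 2 to 44 reads per library, which limits its precision. Library sets are runs of 6 consecutive library numbers, one mouse of each group, and the labels do not say what a set shares. This blocked fit changed no other call of a subunit. Its contrast alone gave 5 subunits in HD against Ctr, 0 in LD against Ctr and 0 in Se_LD against Se_Ctr.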
